A study of Mus musculus with 4 samples.

Results

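The regions described here are ATAC-seq peaks at bidirectional promoters, that is, at the start sites of 2 protein-coding genes that lie head to head and are transcribed away from each other. A peak was taken when its centre lay from 1000 bp upstream to 100 bp downstream of a protein-coding start that has a start of another protein-coding gene on the opposite strand, in divergent orientation, within 1000 bp. By this rule 1027 of all 29611 listed peaks were members, namely 793 of the 25775 WT peaks and 234 of the 3836 Tet2 KO peaks. The annotation holds 1081 divergent gene pairs with 2141 of 22372 protein-coding genes (9.57%), and 384 of these pairs had no peak in either list. No accessibility value entered the rule.

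The study mapped open chromatin in primary myoblasts of C57BL/6 mice, either WT or Tet2 KO. Tet2 is a dioxygenase that oxidises 5-methylcytosine, the first step of active DNA demethylation, and the knockout mice carry a constitutive deletion of its exon 3, which is not limited to muscle. Satellite cells, the stem cells of muscle, were sorted from hindlimb skeletal muscle as PI-, CD45-, CD11b-, CD31-, Sca1-, CD34+ and Integrin a7+ cells, and were grown for 3 days, by when they were MyoD+ myoblasts. The labels give 2 WT and 2 Tet2 KO samples with 5000 cells per library, but there is 1 peak list per genotype, each from a single library that could not be tied to a replicate.

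A difference between the lists is therefore a difference between 2 libraries, and no test between the genotypes could be made. The intervals given are Wilson 95% intervals, which cover counting error only. The lists do not give read totals. The most frequent local background at a summit was 0.649 fragments in the WT list and 1.38 in the Tet2 KO list, and each list skips peak numbers (9707 of WT and 4403 of Tet2 KO), so that both hold only a part of the peaks called. Of 8 myoblast and satellite cell markers, Myod1, Des and Sdc4 had a promoter peak in the WT list and Myod1 and Des in the Tet2 KO list, whereas Myf5, Pax7, Cdh15, Itga7 and Vcam1 had none in either. None of 4 leukocyte and 4 fibro-adipogenic markers had one, and of 4 endothelial markers Pecam1, which encodes the CD31 that the sort removed, had a WT peak of fold enrichment 11.5 and no Tet2 KO peak. That peak is itself a member, at the divergent pair Pecam1/Gm885, with its summit 262.5 bp from the midpoint on the Gm885 side.

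At a bidirectional promoter, both genes are served by a shared stretch of open DNA, from which polymerases leave in opposite directions. Such promoters are usually CpG islands without a TATA box, and genes of DNA repair, RNA processing and mitochondria are often arranged in this way. Factors known to bind them include NF-Y, a trimer that binds the CCAAT box and holds nucleosomes off it, the ETS factor GABPA, NRF1, and the SP and KLF proteins that bind GC boxes.

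In the annotation (GENCODE M1 on mm9), the closest starts of the 1081 pairs lay a median of 135 bp apart, with quartiles of 69 and 271 bp, and 845 pairs (78.2%) had starts at most 300 bp apart. Of the 3986 starts in pairs, 73.4% were of CpG-island type, meaning that the 500 bp around them held at least 55% GC and an observed to expected CpG ratio of at least 0.65. This held for 38.8% of the 42042 other protein-coding starts. A single one of the pairs, mt-Nd6 and mt-Cytb, lies on the mitochondrial genome, and it is covered by the rule although it is no nuclear promoter.

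The sequences between the starts show what these regions are made of. All are from mm9, plus strand, 5′ to 3′, so that the left gene is read to the left and the right gene to the right, and capitals mark matches to the motifs searched on both strands. Of the 11 motifs, those found in them were CCAAT, which reads ATTGG on the other strand, and the GC box GGGCGG. The first 4 are pairs with a peak in both lists and 2 or more CCAAT boxes, at chr7:29526840-29527009, chr6:8209174-8209287, chr15:76181542-76181723 and chr19:42007805-42007961. The fifth, at chr4:116381012-116381113, had the highest WT fold enrichment of all divergent pairs and holds no match. The next pair of sequences, at chr1:34496518-34496695 and chr4:116480246-116480327, had strong WT peaks and no Tet2 KO peak, and the last, at chr11:87218457-87218566, had no peak in either list. They are examples picked from a longer set, so their boxes do not measure an association with peaks. Among those not printed, Acot8/Zswim3 has 3 CCAAT boxes and no Tet2 KO peak, and Nop14/Grk4 has no box and a peak in both lists.
Mrps12/Sars2: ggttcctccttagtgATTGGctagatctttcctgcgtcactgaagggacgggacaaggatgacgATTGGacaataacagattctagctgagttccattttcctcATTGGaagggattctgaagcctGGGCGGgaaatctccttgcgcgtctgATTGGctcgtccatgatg
Rpa3/Gm16039: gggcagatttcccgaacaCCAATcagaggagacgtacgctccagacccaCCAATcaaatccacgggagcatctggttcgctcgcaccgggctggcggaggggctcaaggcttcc
Sharpin/Maf1: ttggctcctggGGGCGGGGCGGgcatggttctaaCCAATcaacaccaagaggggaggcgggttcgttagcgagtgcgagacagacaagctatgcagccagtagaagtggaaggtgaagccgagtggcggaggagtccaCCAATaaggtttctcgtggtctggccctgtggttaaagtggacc
Exosc1/Zdhhc16: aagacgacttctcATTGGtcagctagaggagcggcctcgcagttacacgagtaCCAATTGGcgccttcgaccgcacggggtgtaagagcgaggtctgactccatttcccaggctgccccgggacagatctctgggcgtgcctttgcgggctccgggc
Mmachc/Ccdc163: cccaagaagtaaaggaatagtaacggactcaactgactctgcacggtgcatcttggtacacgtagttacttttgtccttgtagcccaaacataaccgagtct
Ccdc115/Imp4: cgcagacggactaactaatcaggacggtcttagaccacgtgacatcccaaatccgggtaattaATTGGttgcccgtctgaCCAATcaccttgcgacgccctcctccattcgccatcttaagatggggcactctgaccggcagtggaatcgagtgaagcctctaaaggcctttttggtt
Toe1/Mutyh: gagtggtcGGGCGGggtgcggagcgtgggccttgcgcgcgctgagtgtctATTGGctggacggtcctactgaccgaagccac
Rad51c/Tex14: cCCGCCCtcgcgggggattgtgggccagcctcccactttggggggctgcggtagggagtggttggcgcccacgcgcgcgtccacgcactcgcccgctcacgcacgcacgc

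The stretch of 170 bp between Mrps12, a protein of the mitochondrial ribosome, and Sars2, the mitochondrial seryl-tRNA synthetase, has 4 CCAAT boxes, 50% GC and 7 CpG sites. Rad51c/Tex14, with no listed peak, has 75.5% GC, 15 CpG sites in 110 bp and no CCAAT box. Wrap53/Trp53, also without a listed peak, has 56.3% GC and 1 CCAAT box. Over the 994 pairs with at least 31 bp between the starts, the median GC content of this stretch was 62.95% with quartiles of 56.2% and 69.1%, and the median observed to expected CpG ratio was 0.851.

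A WT peak was present at 696 of the 1081 divergent pairs (64.4%, interval 61.5 to 67.2%) and a Tet2 KO peak at 220 (20.4%, interval 18.1 to 22.9%). Both lists had a peak at 219 pairs, the WT list alone at 477, the Tet2 KO list alone at 1, and neither at 384. Of the pairs with a WT peak, 592 had 1 peak, 100 had 2 and 4 had 3 or more. Among the 219 pairs shared by the lists, the strongest WT peak had a median fold enrichment of 11.6 and the strongest Tet2 KO peak of 5.87, and the Tet2 KO value was the lower one at 218 pairs. Over all 3633 WT peaks with a Tet2 KO peak, the Tet2 KO value was lower at 98.1%. Fold enrichment is the number of fragments at the summit over that of its local background in the same library, each with a pseudocount of 1.

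**Figure D1:**
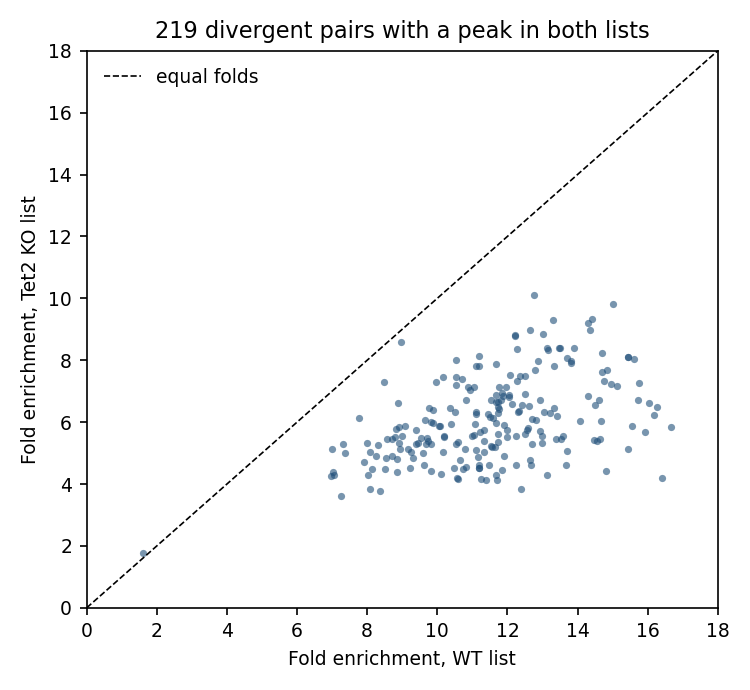
Fold enrichment (a ratio, no unit) of the strongest peak of each of the 219 divergent pairs with a peak in both lists, WT on the horizontal and Tet2 KO on the vertical axis, 1 point per pair, dashed line at equal folds. All pairs but mt-Nd6/mt-Cytb, at the lower left, lie under the line.

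Genes in divergent pairs were listed more often than genes without a divergent start, called single genes here, and the gap was wider at CpG-poor starts. A single gene can have several starts, and a gene with starts of both CpG types counts under both. In the WT list 1042 of 1623 genes with a divergent CpG-island-type start had a promoter peak (64.2%, interval 61.8 to 66.5%). Of 8939 single genes with a CpG-island-type start, 3965 had one (44.4%, interval 43.3 to 45.4%). At CpG-poor starts these shares were 56.2% of 707 divergent genes and 10.7% of 14697 single ones. In the Tet2 KO list the 4 shares, in the same order, were 20.5%, 11.8%, 17.8% and 2.01%. A divergent gene counts a peak that its partner's promoter window also covers, which a single gene cannot, and the part of this in the shares was not tested.

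Most summits lay within 200 bp of the middle of the pairs. The closest starts of all pairs lay a median of 135 bp apart. These distances therefore do not tell a summit at the middle from one at a start. In the WT list the strongest peak of a pair had its summit a median of 70.5 bp from the midpoint between the closest starts, within 100 bp at 411 pairs (59.1%) and within 200 bp at 524 (75.3%). In the Tet2 KO list the median was 71.8 bp, and 133 of 220 pairs (60.5%) were within 100 bp. The summit lay between the starts at 384 WT pairs (55.2%), past the start of the minus-strand gene at 174 and past that of the plus-strand gene at 138. One WT peak covered both starts at 319 pairs (45.8%), and 1 Tet2 KO peak did so at 49 (22.3%). These shares are over different pairs. The starts lay a median of 207 bp apart at pairs with a peak in both lists, and 130 bp at those with a WT peak only. The members' median width was 239 bp in the WT and 222 bp in the Tet2 KO list. At the 226 WT members with a Tet2 KO peak it was 347.5 bp in WT and 226.5 bp in Tet2 KO. Over all WT peaks with a Tet2 KO peak these widths were 337 and 203 bp.

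**Figure D2:**
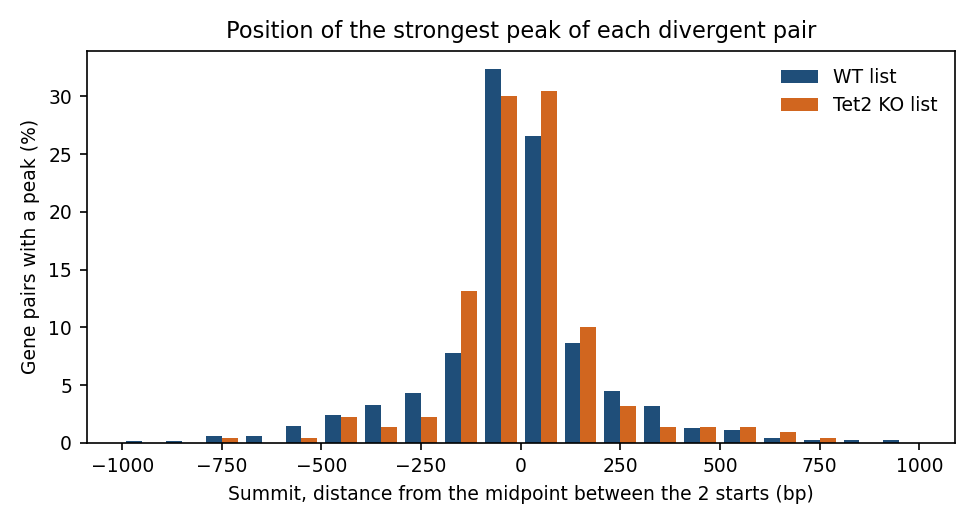
Share of the divergent pairs with a peak (vertical axis, percent of 696 WT and of 220 Tet2 KO pairs) by the distance of the strongest summit from the midpoint between the starts (horizontal axis, bp, negative towards the minus-strand gene, bins of 100 bp). The 2 bins next to the midpoint hold 32.3% and 26.6% of the WT pairs and 30% and 30.5% of the Tet2 KO pairs.

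Measured against single starts, WT members had their summit a median of 42 bp upstream of the nearest start, against 77 bp at single CpG-island-type promoters and 65 bp at single CpG-poor promoters. Of the members, 602 (75.9%) had the summit upstream of the nearest start, compared with 85.9% and 81.3%. Since a divergent start has a neighbour upstream, the distance to the nearest of several starts is shorter by construction.

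Of the 793 WT peaks at divergent promoters, 226 overlapped a Tet2 KO peak by at least 1 bp (28.5%, interval 25.5 to 31.7%), where the share over all WT peaks was 14.1%. The share was 25.2% (interval 23.9 to 26.6%) of 4067 WT peaks at single CpG-island-type promoters, 16.3% (interval 14.5 to 18.2%) of 1547 at single CpG-poor promoters and 11% of 19368 outside protein-coding promoters. Read the other way, 233 of the 234 Tet2 KO members had a WT peak (99.6%), where the share over all Tet2 KO peaks was 96.8%. There were 3.39 WT members for each Tet2 KO member, 3.79 at single CpG-island-type promoters, 5.84 at single CpG-poor promoters and 6.72 over the whole lists. Divergent promoters thus made up 3.08% of the WT list and 6.10% of the Tet2 KO list.

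The members with a Tet2 KO peak were the strong WT peaks. Their median WT fold enrichment was 11.5 against 7.51 for the 567 without one, with 28 against 15 fragments at the summit and a width of 347.5 against 202 bp. When all WT peaks were ranked by fold enrichment in 5 equal groups, the members' share with a Tet2 KO peak was 1.54% of 130 in the lowest, then 7.86% of 140, 12% of 158, 33.1% of 133 and 64.7% of 232 in the highest group. In the highest group the share was 61.1% at single CpG-island-type and 49.0% at single CpG-poor promoters, and 41.9% over all WT peaks.

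**Figure D3:**
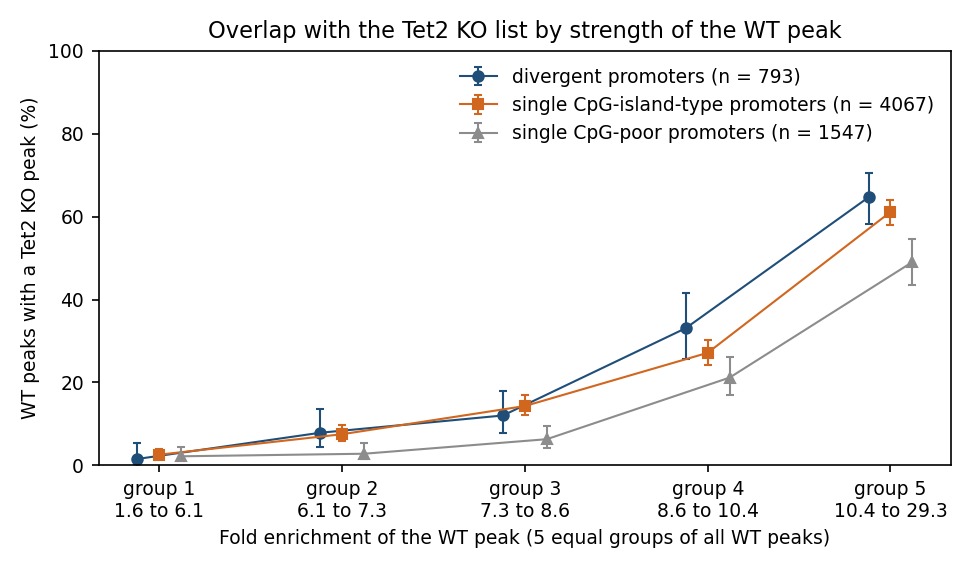
Share of WT peaks with an overlapping Tet2 KO peak (vertical axis, percent) in 5 groups of WT fold enrichment (horizontal axis, a ratio), for divergent, single CpG-island-type and single CpG-poor promoters, with Wilson 95% intervals as bars. The share at divergent promoters goes from 1.54% to 64.7%, and its interval overlaps that of single CpG-island-type promoters in all 5 groups.

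With the 5 fold groups weighted as among the members, the shares were 28.5% at divergent, 27% at single CpG-island-type and 20.01% at single CpG-poor promoters, and 17.3% over all WT peaks. With GC content added in steps of 5 percentage points they were 28.5%, 27.7% and 22.9%. The difference of 3.30 percentage points between divergent and single CpG-island-type promoters was thus 0.868 at matched fold enrichment and GC content. Within the members, the share was lower at high GC content, with 38.4% of 73 peaks with 50 to 55% GC and 15.8% of 120 peaks with 70% or more, whose median WT fold enrichment was 8.53 and 7.36. Single CpG-island-type promoters showed the same, with 35.6% of 188 and 15.6% of 949 peaks and median WT fold enrichments of 8.84 and 7.53.

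At the 226 shared members the median fold enrichment was 11.5 in the WT and 5.83 in the Tet2 KO list, the median of the ratios of Tet2 KO to WT was 0.546, and the Tet2 KO value was lower at 224 (99.1%). The ratio was 0.545 at single CpG-island-type and 0.524 at single CpG-poor promoters, and 0.531 over all shared peaks. The Tet2 KO value was lower at 99.5%, 97.6% and 98.1% of these, so this was not particular to the members. The median number of fragments at the summit was 28 in WT and 15 in Tet2 KO, with a median ratio of 0.567. The medians of the local background at these members were 1.5 (WT) and 1.72 fragments (Tet2 KO), with a median ratio of 1.15, and it was higher in Tet2 KO at 167 of the 226. Over all 3633 shared peaks the background was higher in Tet2 KO at 2620, with a median ratio of 1.16. Over the whole lists the most frequent background differed by 2.13 times, and its part in the difference between the lists was not tested.

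Because the Tet2 KO list skips numbers, a WT peak without a Tet2 KO peak can lie where a Tet2 KO peak was called but not listed. Of the 567 WT members without one, 99 (17.5%, interval 14.6 to 20.8%) lie between neighbouring listed Tet2 KO peaks with consecutive numbers, so that no peak was called there in that library. At 466 at least 1 number was skipped, with a median of 3, and 2 lie at a chromosome end. Up to 694 of the 793 members (87.5%) could therefore have had a called Tet2 KO peak.

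The distance between the starts went together with the listing of a pair. A WT peak was present at 53.6% of the 166 pairs with starts 1 to 50 bp apart and at 72.7% of the 139 pairs with starts 201 to 300 bp apart, and a Tet2 KO peak at 10.8% and 32.4%. At 501 to 1000 bp the shares were lower again, 64.7% (WT) and 23.3% (Tet2 KO) of 116 pairs. Of the pairs with a WT peak, 47 of 238 with starts up to 100 bp apart had a Tet2 KO peak (19.7%, interval 15.2 to 25.3%), 61 of 195 at 101 to 200 bp (31.3%, interval 25.2 to 38.1%) and 111 of 263 at 201 to 1000 bp (42.2%, interval 36.4 to 48.2%). The median WT fold enrichment of these 3 sets was 7.96, 9.34 and 9.62. Within the highest fold group the shares were 52.7% of 55, 62.3% of 69 and 73.5% of 113 pairs, and in the second highest 32.5% of 40, 31.8% of 44 and 34.1% of 44. In the 3 lowest groups together they were 3.5% of 143, 4.88% of 82 and 12.3% of 106, so that the order held there and in the highest group. In both, the intervals of the closest and the widest set overlapped.

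**Figure D4:**
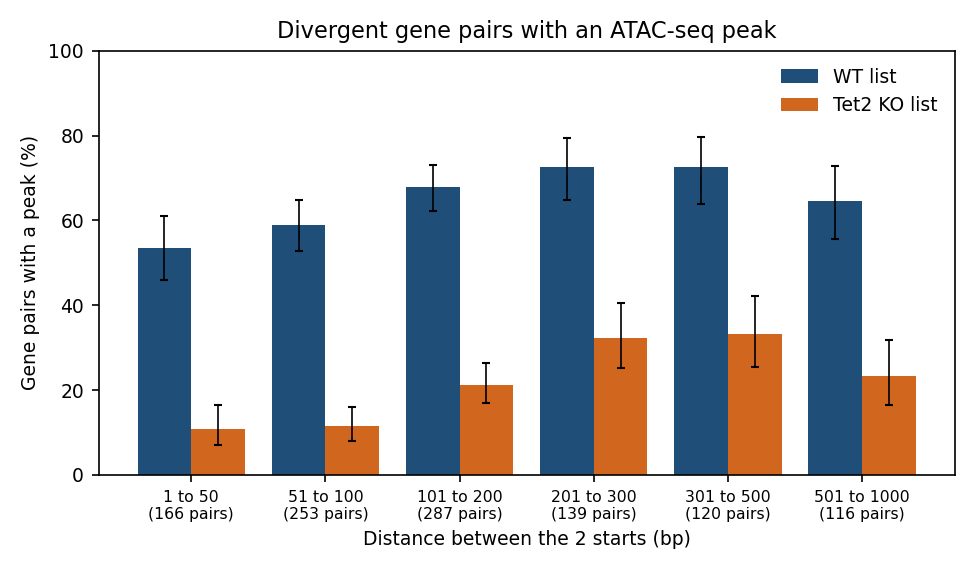
Share of divergent gene pairs with a peak (vertical axis, percent) in the WT and Tet2 KO lists by the distance between the closest starts (horizontal axis, bp), with Wilson 95% intervals as bars. The shares are lowest at 1 to 50 bp, 53.6% in WT and 10.8% in Tet2 KO, and highest between 201 and 500 bp.

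Pairs at the limit of the rule did not stand out. Just inside it, Pdzd7/Sfxn3 and Btf3l4/Txndc12 at 987 bp and Asphd1/Sez6l2 at 981 bp had WT fold enrichments of 6.18, 8.97 and 5.61 and no Tet2 KO peak. Just outside, Atg14/Gm6616 at 1008 bp and 5330417C22Rik/1700013F07Rik and 9130011J15Rik/Tmem38a, both at 1015 bp, had 8, 6.63 and 7.61, and the last overlapped a Tet2 KO peak.

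The CCAAT box was the motif whose presence differed most between pairs with and without peaks, among the 4 counted per pair. In the 200 bp centred on the midpoint between the starts, a window that does not depend on where a peak was called, it occurred at 125 of 219 pairs with a peak in both lists (57.1%, interval 50.5 to 63.5%). It occurred at 180 of 477 pairs with a WT peak only (37.7%, interval 33.5 to 42.2%) and at 63 of 384 with none (16.4%, interval 13 to 20.4%). The ETS motif CCGGAAG was found at 21.5%, 27.3% and 17.4% of these pairs, the GC box GGGCGG at 65.3%, 56.2% and 51.0%, and the NRF1 core CGCATGCG at 3.20%, 4.19% and 5.73%. The match is to the letters alone, and no binding of these factors was measured.

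The share of listed pairs was higher with more CCAAT boxes in that window. Among the 712 pairs without a box, 54.9% had a WT peak and 13.2% (interval 10.9 to 15.9%) a Tet2 KO peak. With 1 box these shares were 78.7% and 26.9% of 216 pairs, with 2 boxes 85.4% and 33.7% of 89, and with 3 or more boxes 92.2% and 59.4% (interval 47.1 to 70.5%) of 64. The median WT fold enrichment of the pairs with a WT peak was 8.15, 9.30, 10.7 and 11.5 in the same order. The pairs with 3 or more boxes also had a wider median distance between the starts, 215 bp against 116 bp without a box, and a lower median GC content, 55% against 64.5%.

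**Figure D5:**
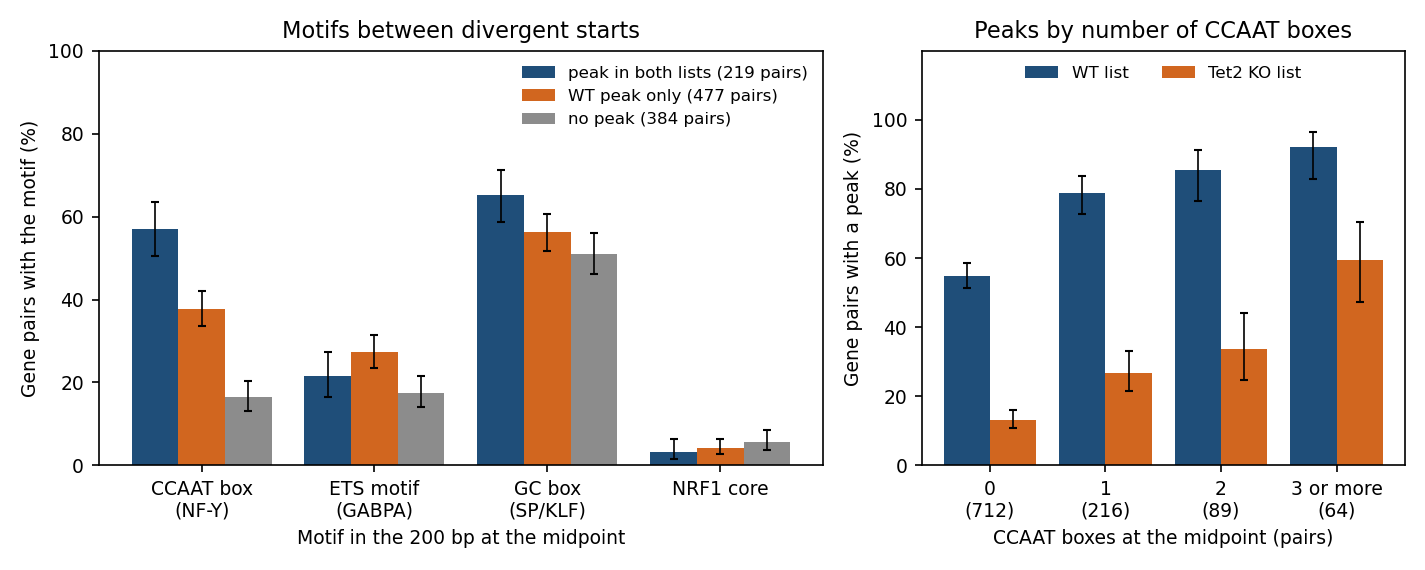
Left, share of divergent pairs (percent) that hold each of 4 motifs in the 200 bp at the midpoint between the starts, for pairs with a peak in both lists, in the WT list only and in neither. Right, share of pairs with a peak (percent) in each list by the number of CCAAT boxes in that window; bars are Wilson 95% intervals, and the Tet2 KO share goes from 13.2% without a box to 59.4% with 3 or more.

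The association with the CCAAT box was also present within bins of distance. With starts up to 100 bp apart, a Tet2 KO peak was present at 21.5% of 93 pairs with the box and 8.28% of 326 without it, at 101 to 200 bp at 27.1% of 144 and 15.4% of 143, and at 201 to 1000 bp at 50.8% of 132 and 18.5% of 243. A WT peak was present at 81.7% and 49.7%, at 79.2% and 56.6%, and at 87.1% and 60.9%. Of 614 boxes in these windows, 521 (84.9%) lay between the starts, a median of 57 bp upstream of the nearer one. Where the starts are over 200 bp apart, the whole window lies between them, so there this holds by construction. The window also limits the distances, so these values do not measure where the boxes are placed.

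Counted in the 200 bp at the centre of each WT peak, CCAAT was present in 385 of 793 members (48.5%), against 44.8% at single CpG-island-type promoters, 41.2% at single CpG-poor promoters and 28.4% of all WT peaks. Members with the box had a Tet2 KO peak in 38.4% (interval 33.7 to 43.4%) and those without it in 19.1% (interval 15.6 to 23.2%), with median WT fold enrichments of 9.77 and 7.55. Within the highest fold group the shares were 67.9% of 159 and 57.5% of 73, and within the second highest 34.2% of 76 and 31.6% of 57, and the intervals with and without the box overlapped in both groups. In the middle group they were 11.9% of 67 and 12.1% of 91, without a difference. Below it they were 10.6% of 47 and 6.45% of 93, and in the lowest group 2.78% of 36 and 1.06% of 94. At single CpG-island-type promoters the shares with and without the box were 35.6% and 16.8%. In the highest fold group they were 65.6% of 665 (interval 61.9 to 69.1%) and 52.4% of 338 (interval 47.05 to 57.6%), whose intervals did not overlap. Over all WT peaks the shares with and without the box were 19.6% and 11.9%, and at single CpG-poor promoters 19.8% and 13.8%. At the latter the order held in the highest fold group (52.3% of 176 and 44.9% of 138). It was reversed in all the others, with 18.3% of 126 and 23.4% of 167 in the second highest.

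For the other motifs, the members were nearer to single CpG-island-type promoters than to all WT peaks. The ETS motif was in 25% of the members, 18.7% of peaks at single CpG-island-type promoters, 9.11% at single CpG-poor promoters and 5.80% of all WT peaks, and the GC box in 61.0%, 70.3%, 41.1% and 22.5%. CAGCTG, an E box that MyoD can bind, was in 9.58% of the members, 11% at single CpG-island-type promoters, 24.2% at single CpG-poor promoters and 33.6% of all WT peaks, and the AP-1 motif TGANTCA in 3.40%, 3.44%, 14% and 34.2%. TATAAA was in 2.27%, 1.94%, 4.98% and 5.85%. In the 200 bp upstream of every annotated start, irrespective of peaks, CCAAT was in 34.1% of divergent starts and 28.5% of all 46028 starts, and the ETS motif in 21.7% and 8.13%. At other CpG-island-type starts CCAAT was in 27.4% and the ETS motif in 12.9%, and at other CpG-poor starts in 28.3% and 3.01%.

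Among the 30 textbook pairs looked up, 14 were divergent within 1000 bp in this annotation, 10 of them had a WT peak (71.4%) and 4 a Tet2 KO peak (28.6%), where the shares over all divergent pairs were 64.4% and 20.4%. Atm, the kinase that signals DNA breaks, and Npat, a coactivator of histone genes, have starts 307 bp apart. Their WT peak, with its summit between the starts, had a fold enrichment of 11.2 from 27 fragments, and their Tet2 KO peak 4.61 from 10 fragments. At Mrps12/Sars2, whose sequence is printed above, the WT peak between the starts had a fold enrichment of 11.6 and the Tet2 KO peak 5.18, and a weaker WT peak of 4.23 in Sars2, 284 bp past its start, had no Tet2 KO peak.

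A Tet2 KO peak at a pair was not always at the DNA between the starts. At Mcm7, a subunit of the replicative helicase, and Ap4m1, the WT peak between the starts had a fold enrichment of 6.10 and no Tet2 KO peak. A second WT peak of 9.67, with its summit 631 bp past the Mcm7 start, had a Tet2 KO peak of 5.29 at 632 bp.

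Several other textbook pairs had WT peaks and no counterpart in the Tet2 KO list. Hspd1/Hspe1, the mitochondrial chaperonin and its partner, had a WT fold enrichment of 7.33. Mcm4/Prkdc, a helicase subunit and the DNA-dependent protein kinase, had 2 WT peaks of 9.96 and 7.89. Sirt3/Psmd13, a mitochondrial deacetylase and a proteasome subunit, had 2 of 6.67 and 6.22, and Vps35/Orc6, of the retromer and the origin recognition complex, 2 of 8.57 and 6.98. Psmb9/Tap1, of the immunoproteasome and the antigen peptide transporter, had 2 of 6.80 and 5.88, and it alone among these lies where the Tet2 KO list skips no number. Surf1/Surf2, the collagen genes Col4a4/Col4a3 and Rad51c/Tex14 are among the 4 with no peak in either list.

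The strongest WT peaks with a Tet2 KO counterpart had WT fold enrichments from 15.6 to 16.7 in the first 10 pairs. Mmachc, which processes vitamin B12, shares its start region with Ccdc163, and its WT peak of 16.7 from 44 fragments stood beside a Tet2 KO peak of 5.84 from 14 fragments. Rpa3, the small subunit of replication protein A, had 16.4 in WT and 4.20 in Tet2 KO. Myd88, the adaptor of Toll-like receptors, is paired with the peroxisomal thiolase Acaa1a, and the values were 16.3 and 6.49. Sharpin, of the linear ubiquitin ligase, and Maf1, a repressor of RNA polymerase III, had 16.2 and 6.24. Exosc1, a subunit of the RNA exosome, and Zdhhc16 had 16.03 and 6.62. In these 5 pairs the summits of the lists lay 3 to 65 bp apart. The pairs were picked for a high WT value, and the Tet2 KO value was the lower one at 218 of all 219 shared pairs. A lower Tet2 KO value is therefore no trait of these 5.

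The strongest WT peaks without a Tet2 KO counterpart had fold enrichments from 13.5 to 15.4 over 10 pairs. Tmtc3/Cep290, the latter a protein of the ciliary base, had a WT fold enrichment of 15.4, and Pus7l/Irak4, the latter a kinase downstream of Myd88, had 15.0. Tbcb/Polr2i, a tubulin folding cofactor and a subunit of RNA polymerase II, had 14.6 with its summit 461 bp from the midpoint, and Ccdc115/Imp4, the latter a ribosome assembly protein, 14.2. Toe1, which trims small nuclear RNAs, and Mutyh, the adenine DNA glycosylase, had 13.9 from 31 fragments, and among these 10 it is the pair where the Tet2 KO list skips no number.

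Among divergent pairs the highest Tet2 KO -log10 q, the multiplicity-corrected score of a summit against its own background, was 17.2 at 1200016B10Rik/1190005F20Rik, with a Tet2 KO fold enrichment of 10.1 and a WT one of 12.8. Rpgrip1l, of the ciliary transition zone, and Fto, an RNA demethylase, had 9.82 in Tet2 KO and 15.0 in WT. Anxa5, which binds phosphatidylserine, and 1810062G17Rik had 8.97 and 12.6, and Derl2/Mis12, of protein degradation at the endoplasmic reticulum and of the kinetochore, had 9.31 and 13.3. The Derl2/Mis12 summits lay 451 bp (Tet2 KO) and 429 bp (WT) past the Derl2 start.

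The pairs were also read by gene group, with 17 lists of 1 to 38 pairs each, whose shares were not tested. Over all pairs, against which the counts below stand, 64.4% had a WT peak and 20.4% a Tet2 KO peak. DNA repair genes were in pairs more often than the 9.57% of all protein-coding genes, with 31 of 91 (34.1%). Their 32 pairs had a WT peak at 24 and a Tet2 KO peak at 10, the latter including Xrcc4/Tmem167, of end joining, with 13.4 in WT and 5.45 in Tet2 KO, and Hscb/Chek2, the checkpoint kinase, with 13.3 and 6.44. Over all pairs with a WT peak, 31.5% had a Tet2 KO peak, against 10 of these 24 (41.7%). The Xrcc4/Tmem167 summits lay 513 bp (WT) and 532 bp (Tet2 KO) past the Tmem167 start. Of the DNA replication list 17 of 57 genes were in pairs, with a WT peak at 14 pairs and a Tet2 KO peak at 3, among them Orc4/Mbd5.

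Cell cycle genes had 22 pairs, 16 with a WT peak and 1 with a Tet2 KO peak (6.25% of those with a WT peak). Cdc26/Prpf4, a subunit of the anaphase-promoting complex and a splicing factor, had a WT fold enrichment of 13.1, Cenpp/Nol8 11.3 and Cdk5/Slc4a2 11.3, each without a Tet2 KO peak. Splicing and RNA processing genes, 38 of 110 in pairs, had a WT peak at 27 pairs and a Tet2 KO peak at 6. The 27 replication-dependent histone genes in pairs, of 68, formed 14 pairs with one another or with other genes, 10 with a WT and 3 with a Tet2 KO peak, and at Hist1h2ah/Hist1h2bk the values were 11.1 and 6.25. Histone genes are near-identical copies, and reads with a low mapping quality were left out by the authors, so their values are less certain.

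Mitochondrial ribosomal genes, 24 of 76 in pairs, had a WT peak at 13 of 23 pairs and a Tet2 KO peak at 4. Mrpl18/Tcp1, a protein of the large subunit and one of the cytosolic chaperonin, had 14.5 in WT and 6.55 in Tet2 KO, and Mrpl41/Pnpla7 13.8 and 7.97. Respiratory chain and ATP synthase genes had a WT peak at 17 of 24 pairs and a Tet2 KO peak at 2. One of these was Atp5j/Gabpa, in which the second gene encodes the ETS factor named above, with 11.1 and 7.13. The pairs of mitochondrial import genes and chaperones had a WT peak at 4 of 6 and no Tet2 KO peak. Cytosolic ribosomal genes had a WT peak at 5 of 14 pairs and a Tet2 KO peak at 2, of which Rpl15/Nkiras1 had 12.4 and 7.49. At the other, Sphk2/Rpl18, the summits lay 2672 bp (WT) and 2685 bp (Tet2 KO) past the Sphk2 start closest to Rpl18. These peaks were counted at another start of the pair.

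Aminoacyl-tRNA synthetase genes had a WT peak at 8 of 10 pairs and a Tet2 KO peak at 3. Ears2/Ubfd1, the first of which charges mitochondrial tRNA with glutamate, had 13.1 and 8.32, while Wars/Wdr25, with a WT peak of 11.7, lies where no Tet2 KO number is skipped. Proteasome genes had 9 and 1 of 11 pairs, translation factors 7 and 2 of 10, and genes of the zinc finger family named Zfp 13 and 5 of 20. The strongest pair of the last list was Zfp142/Bcs1l, with 14.9 in WT and 7.25 in Tet2 KO.

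Muscle genes were rarely in divergent pairs, 4 of 131 (3.05%), and a peak was listed at 1 of the 4 pairs. This was Actn3, the alpha-actinin of fast muscle fibres, with Zdhhc24, whose starts lie 763 bp apart. The WT peak had a fold enrichment of 9.06 with its summit 313.5 bp from the midpoint on the Zdhhc24 side, and no Tet2 KO peak was listed. The collagen list held 1 pair, without a peak.

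Of the 25 genes of DNA methylation and its removal, 3 were in pairs (12%, against 9.57% of all genes), each with a WT peak, as had 64.4% of all pairs. Mbd4, a glycosylase that removes thymine or uracil opposite guanine at CpG sites, shares its promoter with Ift122, with a fold enrichment of 12.1 from 28 fragments in WT and 6.57 from 17 in Tet2 KO. Orc4/Mbd5, of the origin recognition complex and the family of methyl-CpG binding proteins, had 12.9 and 6.71. Idh1, which makes the 2-oxoglutarate that TET enzymes use, and Pikfyve had 7.22 in WT and no Tet2 KO peak.

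Chromatin regulators were in 17 pairs, with a WT peak at 13 (76.5%, against 64.4% of all pairs) and a Tet2 KO peak at 3 (17.6%, against 20.4%). The 3 were Asf1b, a histone chaperone, with Gm10644 (10.5 in WT and 7.20 in Tet2 KO), Kdm1b, a histone H3 lysine demethylase, with Tpmt (10.5 and 7.46), and Cbx5, the heterochromatin protein HP1 alpha, with Hnrnpa1 (8.31 and 5.25). At Tpmt/Kdm1b 2 separate WT peaks, one past each start, faced a single Tet2 KO peak of 405 bp with its summit between the starts. Sirt2 with Nfkbib had 12.2, Rbbp4 with Zbtb8os 10.3, Prmt7 with Slc7a6os 7.93 and Sirt6 with Ankrd24 7.73 in WT, each without a Tet2 KO peak.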

How the data were processed

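ATAC-seq peak lists of primary myoblasts, 1 per genotype, were analysed and assigned to WT or Tet2 KO by their names. Per the labels and the study's methods, the authors cut the 150 bp reads to 36 bp before alignment (Bowtie2, mm9), dropped duplicates and alignments with a mapping quality under 30, and called peaks with MACS2 (q of 0.01 in the methods). The submitters' processing notes also name CASAVA. The authors deposited a fold enrichment (a ratio) and the -log10 p and -log10 q of each summit, with its offset in bp; 55 Tet2 KO peaks have a -log10 q under 2. The score column was not used.

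The number of fragments at a summit was solved from the deposited fold enrichment and -log10 p by the Poisson formula, with an error under 0.001, for 100% of the peaks. Total reads are unknown. Starts were those of protein-coding transcripts in GENCODE M1, and sequences were read from the same build (NCBIM37). Positions are 1-based. An overlap of 1 bp counted. Each list is 1 library, so no test was made. Calculations were checked on simulated data.

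The members, gene lists, 11 motifs and named pairs were chosen with earlier results of these data known. Named were textbook pairs (a selection of these in full), the 10 strongest WT pairs with and without a Tet2 KO peak (a selection of each), those with the highest Tet2 KO -log10 q, members of the methylation, muscle and chromatin lists, up to 3 per other list, and the pairs at the distance limit. Some pairs under this rule are not reported here. The alternatives changed the distance, orientation, window, set of starts, peak limits, chromosomes, merging and overlap. The tools were pyfaidx 0.9.0.4, pandas 2.3.3, matplotlib 3.10.9, scipy 1.17.1 and numpy 2.4.6 in Python 3.11.15.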

Additional observations from a re-analysis of the deposited data

How the results depend on the processing

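No paired analysis was possible because the WT and Tet2 KO lists cannot be tied to replicates, and none could be left out. Of 147 recomputed values, 110 stayed within 1.5 times the reported count or ratio, or within the reported interval. Divergent promoters had a higher share with a Tet2 KO peak than single promoters, both CpG types pooled, under all 13 alternatives, by 1.77 to 7.35 percentage points, with overlapping intervals at a -log10 q of at least 10. Single CpG-island-type promoters alone were not run.

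With starts at most 500 bp apart, members were 2.70% of the WT and 5.32% of the Tet2 KO list, and with at most 2000 bp 3.41% of WT. With opposite strands in either order they were 3.42% of WT, and 60.9% of pairs had a WT peak. With the 5′-most start of each gene they were 2.43% and 5.01%. With a window of 1000 bp on either side, 21.6% of WT peaks at single promoters had a Tet2 KO peak. With merged peaks this was 23.9%, members were 2.85% of WT and their median WT fold enrichment was 8.74. These rules add or drop members by construction.

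With a -log10 q of at least 5, 142 Tet2 KO members were left, 5.27 WT per Tet2 KO. Of WT members 19.0% had a Tet2 KO peak, against 14.8% at single promoters, 100% of Tet2 KO members a WT peak and 13% of pairs a Tet2 KO peak, and the median Tet2 KO fold enrichment was 6.55. With at least 10, 492 WT and 38 Tet2 KO members (12.9 per 1) were left, 3.5% and 7.48% of the lists, with 7.72% of WT and 100% of Tet2 KO members overlapping, 5.96% at single promoters, 43.4% and 3.61% of pairs listed, and median fold enrichments of 10.2 and 8.12. At fold enrichments of 5 or more, 22.8% of WT members and 17.3% of peaks at single promoters had a Tet2 KO peak, as did 16% of pairs, and the median Tet2 KO fold enrichment was 6.26. When 50% of each peak had to overlap, the shares were 22.6% of WT and 76.5% of Tet2 KO members, and 17% at single promoters.

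Alternatives chosen after seeing the data were run for the split by CCAAT box (13) and for starts at most 100 against over 200 bp apart (12, without the 50% overlap), and the order was kept. At a -log10 q of at least 10 the Tet2 KO share was 9.66% with and 4.95% without the box, with overlapping intervals. Over 12 alternatives and 86 named pairs, 91 of 1992 peak counts changed by over 1.5 times, of which 84 were lower and 7 higher.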

Other observations

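Some values were singled out after they were seen, and they were not tested. The gene for the A subunit of NF-Y, the trimer that binds the CCAAT box, is itself in a divergent pair, Nfya/AI314976. Its starts lie 108 bp apart, and the fold enrichment was 8.89 from 27 fragments in WT and 6.61 from 18 in Tet2 KO. The ratio of Tet2 KO to WT was 0.743, against a median of 0.539 over the 219 pairs with a peak in both lists.

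The nuclear pair whose values were closest in the lists was Cep57/Fam76b, the former a centrosomal protein, with 8.96 in WT and 8.60 in Tet2 KO. It was followed by Fam35a/Glud1, the latter the mitochondrial glutamate dehydrogenase, with 8.48 and 7.31. At the mitochondrial pair mt-Nd6/mt-Cytb the summits had 200 fragments in WT over a local background of 123.9, and 210 in Tet2 KO over 118.8.

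By chromosome, the share of pairs with a Tet2 KO peak among those with a WT peak was highest on chromosome 5, with 24 of 50 (48%, interval 34.8 to 61.5%), where it was 31.5% over all chromosomes. On chromosome 18 it was 0 of 11, which by its Wilson interval allows a share of up to 25.9%.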
